A study of Mus musculus with 2 samples.

Results

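Expression of 8 genes of retinoid signalling (Crabp2, Rarg, Rara, Rarb, Dhrs3, Dhrs9, Rdh10 and Stra6) was examined in mouse urothelial organoids by droplet-based single-cell RNA sequencing. The genes were taken as a list of symbols, chosen with earlier results of these data known. All 8 were among the 31053 gene identifiers of both libraries. Organoids were grown from unsorted urothelial cells of wild-type (WT) C57BL/6 mice of 8 to 10 weeks of age. Proliferative organoids (P) were kept in complete medium, while differentiated organoids (D) were transferred to a medium from which Noggin, EGF, WNT3A, RSPO1 and the TGF-β receptor inhibitor LY2157299 had been left out. Both groups share the wild-type genotype, the strain and a first period in complete medium. Each condition is 1 library, for which 10000 cells were loaded, so that differences between the libraries could not be checked against replicates and no p-value is given. Cells of 1 library are not replicates of its condition.

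Retinol reaches cells bound to a carrier and is taken up through the membrane receptor STRA6. Retinol dehydrogenases such as RDH10 oxidise it to retinaldehyde, DHRS3 reduces retinaldehyde back to retinol, and aldehyde dehydrogenases of the ALDH1A family convert retinaldehyde to retinoic acid. CRABP2 carries retinoic acid to the nucleus, where the receptors RARA, RARB and RARG, paired with RXR proteins, regulate transcription at direct repeats of a short motif. CYP26 enzymes degrade retinoic acid. Vitamin A deficiency is long known to turn the urothelium into a keratinising squamous epithelium.

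The cells kept had more than 800 genes detected and no more than 12% of their UMIs (unique molecular identifiers, one per captured RNA molecule) from mitochondrial genes. These were 6818 of 8194 barcodes in P, with 26681469 UMIs, and 4896 of 6975 barcodes in D, with 20305621 UMIs. The median depth was 3405.5 UMIs per cell in P and 3227.5 in D, and 6 of the kept barcodes occurred in both libraries. The epithelial markers Epcam and Cdh1 were at 318 and 116 counts per 1000000 UMIs (CPM) in P and at 471 and 295 CPM in D. The 4 hemoglobin genes of the erythroid list had 0 UMIs in both libraries. Of the leukocyte list, Tyrobp and Cd3e had 0 UMIs in both libraries and the summed level of 0.375 CPM in P and 19.8 CPM in D came almost wholly from Laptm5 in D. The fibroblast list was at 1.99 CPM in P and 62.5 CPM in D, with 0 UMIs of Col1a2 in both libraries and 1234 of the D UMIs from Dcn. The 4 endothelial genes were at 5.17 and 3.30 CPM, with Cdh5 and Kdr at 0 UMIs in both libraries. Ribosomal protein transcripts were 37.5% of all UMIs in P but 21.4% in D. On the CPM scale the median of 8939 well-covered genes was higher in D than in P by 0.42 (log2), and ratios between libraries are therefore also given with this shift removed. Genes of the dissociation response summed to 1656 CPM in P and 3436 CPM in D. As an alternative, ratios were also scaled without mitochondrial and ribosomal protein genes. Apart from such rescaling, the part of these differences in the results below was not tested.

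To compare the members between conditions, UMIs were summed over the kept cells and given as CPM, with exact 95% Poisson intervals that cover counting error only. Rdh10 was several times higher and Crabp2 several times lower in D. Stra6 was lower in D, and the 3 receptors and Dhrs3 were higher, each by under 2-fold. Dhrs9 was barely detected. A gene was called when its CPM differed at least 2-fold with at least 50 UMIs over both libraries, which 7 of the 8 members had. By this limit 1 member was higher in D (Rdh10), where 14.3% of all 11653 such genes were higher, and 1 was lower (Crabp2), where 5.66% were lower. With the shift removed 1 member was higher and 2 were lower (Crabp2 and Stra6), against 6.43% and 9.83% of all genes. The median log2 ratio of the members was 0.43, close to the 0.40 of all genes. At a limit of 1.5-fold, 3 members were higher and 2 lower in D, where 46% of all genes were called one way or the other. Levels of different genes are not set against each other, since capture differs between transcripts.

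**Figure D1:**
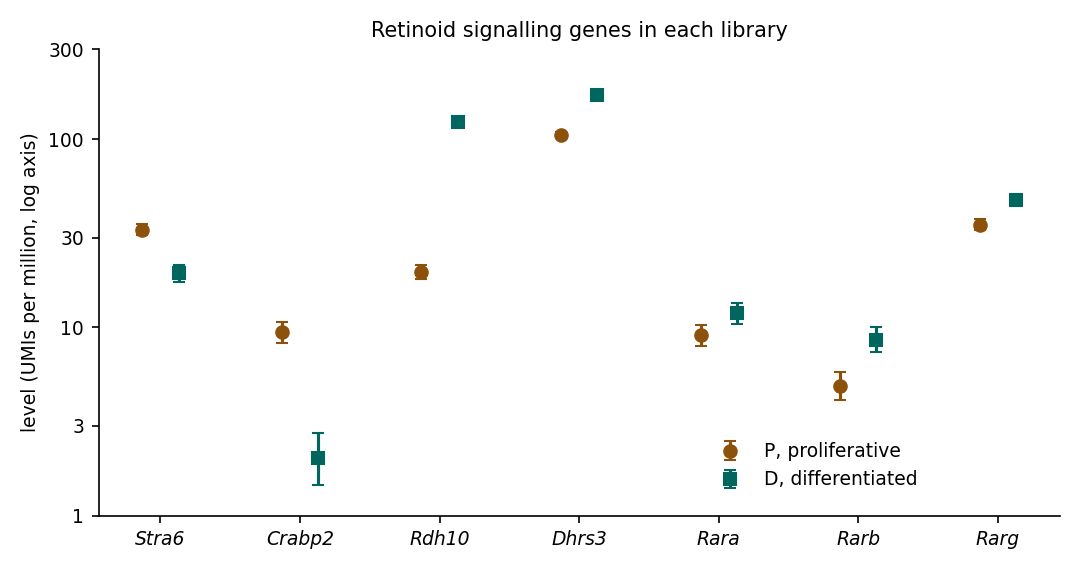
Level of each retinoid gene in P (circles) and D (squares), in CPM on a log axis, over 6818 and 4896 cells, with exact 95% Poisson intervals as bars. Rdh10 stands at 19.7 in P and 123 in D, Crabp2 at 9.41 and 2.02, and the receptors differ by under 2-fold. Dhrs9 is not drawn.

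Stra6, the retinol transporter (ENSMUSG00000032327, chromosome 9, 58063788 to 58153996, plus strand, GRCm38), had 882 UMIs in P (33.1 CPM, 30.9 to 35.3) and 393 in D (19.4 CPM, 17.5 to 21.4). The counting intervals of both libraries did not overlap. The log2 ratio D over P was −0.77 (−0.95 to −0.60), and −1.19 with the shift removed, so that the 2-fold limit was met only on the second scale.

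Rdh10 (ENSMUSG00000025921, chromosome 1, 16105774 to 16133734, plus strand) encodes the retinol dehydrogenase that makes most of the retinaldehyde used for retinoic acid synthesis in the embryo. It had 526 UMIs in P (19.7 CPM, 18.1 to 21.5) and 2491 in D (123 CPM, 118 to 128). The level in D was thus 6.22-fold higher. The log2 ratio was 2.64 (2.50 to 2.78), or 2.22 with the shift removed, and it ran from 2.22 to 2.66 over 7 alternatives of filter and scaling.

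Dhrs3 (ENSMUSG00000066026, chromosome 4, 144892827 to 144928209, plus strand), whose product works against RDH10, had 2799 UMIs in P (105 CPM, 101 to 109) and 3502 in D (172 CPM, 167 to 178). Its log2 ratio was 0.72 (0.65 to 0.79), and 0.30 once the shift was removed. Dhrs9 (ENSMUSG00000027068, chromosome 2, 69380445 to 69404533, plus strand), a further short-chain dehydrogenase active on retinol, had 2 UMIs in P and 0 in D. A count of 0 in D allows a level of up to 0.148 CPM (3 UMIs of the library total), so no difference between conditions was detectable for Dhrs9.

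Crabp2 (ENSMUSG00000004885, chromosome 3, 87948666 to 87953376, plus strand), the cellular retinoic acid carrier, had 251 UMIs in P (9.41 CPM, 8.28 to 10.6) and 41 in D (2.02 CPM, 1.45 to 2.74). The level was 4.66-fold lower in D, and the log2 ratio was −2.22 (−2.73 to −1.74), or −2.64 with the shift removed. The count in D is small, and the range over the 7 alternatives was −2.64 to −1.85.

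Of the receptors, Rarg and Rara lay close to the median gene. Rarg (ENSMUSG00000001288, chromosome 15, 102234938 to 102257517, minus strand) had 938 UMIs in P (35.2 CPM, 32.9 to 37.5) and 963 in D (47.4 CPM, 44.5 to 50.5). Rara (ENSMUSG00000037992, chromosome 11, 98927818 to 98974942, plus strand) had 243 UMIs in P (9.11 CPM, 8.00 to 10.3) and 242 in D (11.9 CPM, 10.5 to 13.5). The log2 ratio was 0.43 (0.30 to 0.56) for Rarg and 0.39 (0.13 to 0.65) for Rara. With the shift removed these were 0.01 and −0.03, so that the sign for Rara turned with the scaling. Rarb (ENSMUSG00000017491, chromosome 14, 16430839 to 16819156, minus strand) had 131 UMIs in P (4.91 CPM, 4.11 to 5.83) and 175 in D (8.62 CPM, 7.39 to 9.99). Its log2 ratio was 0.81 (0.48 to 1.15), and 0.39 with the shift removed.

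Rarb is itself a classical target of retinoic acid, and Cyp26a1, which encodes a retinoic acid-degrading enzyme, is another. Promoters from RefSeq (GRCm38.p6, 250 bases before to 50 after each start) were searched on both strands for direct repeats with each copy being AGGTCA, the variant GGGTCA, the further form AGTTCA or its relative GGTTCA, with spacers of 1, 2 or 5 bases. Promoters were found for 6 of the 8 members, 15 promoters in all, with none listed for Crabp2 and Rdh10. Of these 15, only the Rarb promoter held such a repeat, with a spacer of 5 bases. The 48 promoters of 38 further pathway genes held 2, a spacer of 5 in Cyp26a1 and a spacer of 1 in Bco1. Over all 32851 promoters 0.588% held a repeat of any of the 3 spacings and 0.0974% one with a spacer of 5. No promoter held more than 1 of the 3 spacings. A match describes the letters and not a bound site. Both sequences with the spacer of 5 are shown as the 250 bases before the start, because these genes are usual readouts of retinoic acid. The Rarb stretch is chr14:16575477-16575726 on the minus strand, within the span of the gene, and the Cyp26a1 stretch is chr19:37697558-37697807 on the plus strand. Each is written 5′ to 3′ with the repeat in capitals.
Rarb: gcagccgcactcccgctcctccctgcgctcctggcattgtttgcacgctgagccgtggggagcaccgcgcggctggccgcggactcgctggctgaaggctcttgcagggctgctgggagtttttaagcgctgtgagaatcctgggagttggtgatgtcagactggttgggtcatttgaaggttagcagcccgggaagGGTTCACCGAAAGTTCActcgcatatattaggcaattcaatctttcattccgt
Cyp26a1: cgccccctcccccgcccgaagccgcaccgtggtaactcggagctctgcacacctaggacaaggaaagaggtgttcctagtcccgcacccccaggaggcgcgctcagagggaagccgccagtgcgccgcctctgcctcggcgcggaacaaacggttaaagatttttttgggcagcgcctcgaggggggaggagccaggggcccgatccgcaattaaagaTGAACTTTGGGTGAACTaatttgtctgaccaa
The Rarb repeat spans bases 53 to 37 before the start. The Cyp26a1 repeat spans bases 32 to 16 before the start and reads as the direct repeat on the opposite strand. Rarb was at the low levels given above, and Cyp26a1 had 0 UMIs in both libraries, which allows up to 0.112 CPM in P and 0.148 CPM in D by the same limit of 3 UMIs.

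To relate the genes to squamous and urothelial states, each kept cell was assigned by transcripts that are not members. Cells in the highest 25% by the UMI share of 12 squamous genes over all kept cells (at least 0.112% of UMIs), with under 2 UMIs of the 5 uroplakin genes, were called squamous. Uroplakins are the membrane plaque proteins of luminal urothelium. Cells with at least 2 uroplakin UMIs outside that 25% were called urothelial, cells that met both criteria form their own class, and the rest are called other. P held 1491 squamous, 23 urothelial, 70 of both and 5234 other cells. D held 443 squamous, 1256 urothelial, 925 of both and 2272 other cells. Since the states are cut from a score, 463 cells of P and 679 of D lay within 0.8 to 1.25 times the squamous limit.

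The squamous label held in P but not in D. Squamous cells of P had 4849 UMIs of Flg, which encodes filaggrin (682 CPM), and 2181 of Crnn, cornulin. The 443 cells of D in the same class had 0 UMIs of Flg and 3 of Crnn, and were in the class through Sprr1a, Ivl and Sbsn at 1353, 285 and 152 CPM. These D cells are therefore called squamous-list cells here. The median depth was 4056 UMIs in squamous and 3214 in other cells of P, and 3830 in urothelial and 2797.5 in other cells of D, so that the criterion on uroplakin UMIs favours deeper cells.

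Within P, Stra6, Rarb and Rara were lower in squamous cells than in other cells, and Rdh10 was higher. Crabp2 and Rarg had ratios whose counting intervals included 0 on the log2 scale. Of the 7 members with 50 UMIs, 0 were called higher and 2 lower (Stra6 and Rarb), where 4.67% of 10636 genes were higher and 11.3% lower. Stra6 had 771 UMIs in other cells (40.6 CPM, 37.8 to 43.6) and 103 in squamous cells (14.5 CPM, 11.8 to 17.6), a log2 ratio of −1.49 (−1.80 to −1.19). Rarb had 112 UMIs in other cells (5.90 CPM) and 19 in squamous cells (2.67 CPM), with a log2 ratio of −1.14 (−1.93 to −0.43). The whole interval of Stra6 lay beyond 2-fold, whereas that of Rarb reached well inside it.

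Both values moved with the squamous list. Without the Sprr genes, Stra6 was at −0.77 and Rarb at −0.53, and neither was called. When a squamous cell was instead one with at least 2 UMIs of 7 cornified genes (Flg, Crnn, Cnfn, Sprr2d, Sprr2f, Sprr3 and Krtdap), Stra6 was at −1.28 and Rarb at −0.68.

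The remaining members of P moved within 2-fold. Rara was at 10.4 CPM in other and 5.91 CPM in squamous cells, with a log2 ratio of −0.81 (−1.33 to −0.33). Rdh10 was at 16.2 CPM (307 UMIs) in other and 27.2 CPM (193 UMIs) in squamous cells, with a log2 ratio of 0.75 (0.48 to 1.01). Dhrs3 was at 97.8 and 118 CPM, a log2 ratio of 0.27 (0.16 to 0.39). Crabp2 was at 8.70 and 11.1 CPM, a log2 ratio of 0.35 (−0.05 to 0.75), and Rarg at 35.0 and 36.3 CPM, a log2 ratio of 0.05 (−0.16 to 0.26). Scaled without mitochondrial and ribosomal protein genes, the log2 ratio was 0.12 for Dhrs3, −0.10 for Rarg and −0.97 for Rara. Summed basal markers were at 6799 CPM in other and 4205 CPM in squamous cells, and proliferation markers at 340 and 58.3 CPM, and their part in these ratios was not tested.

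**Figure D2:**
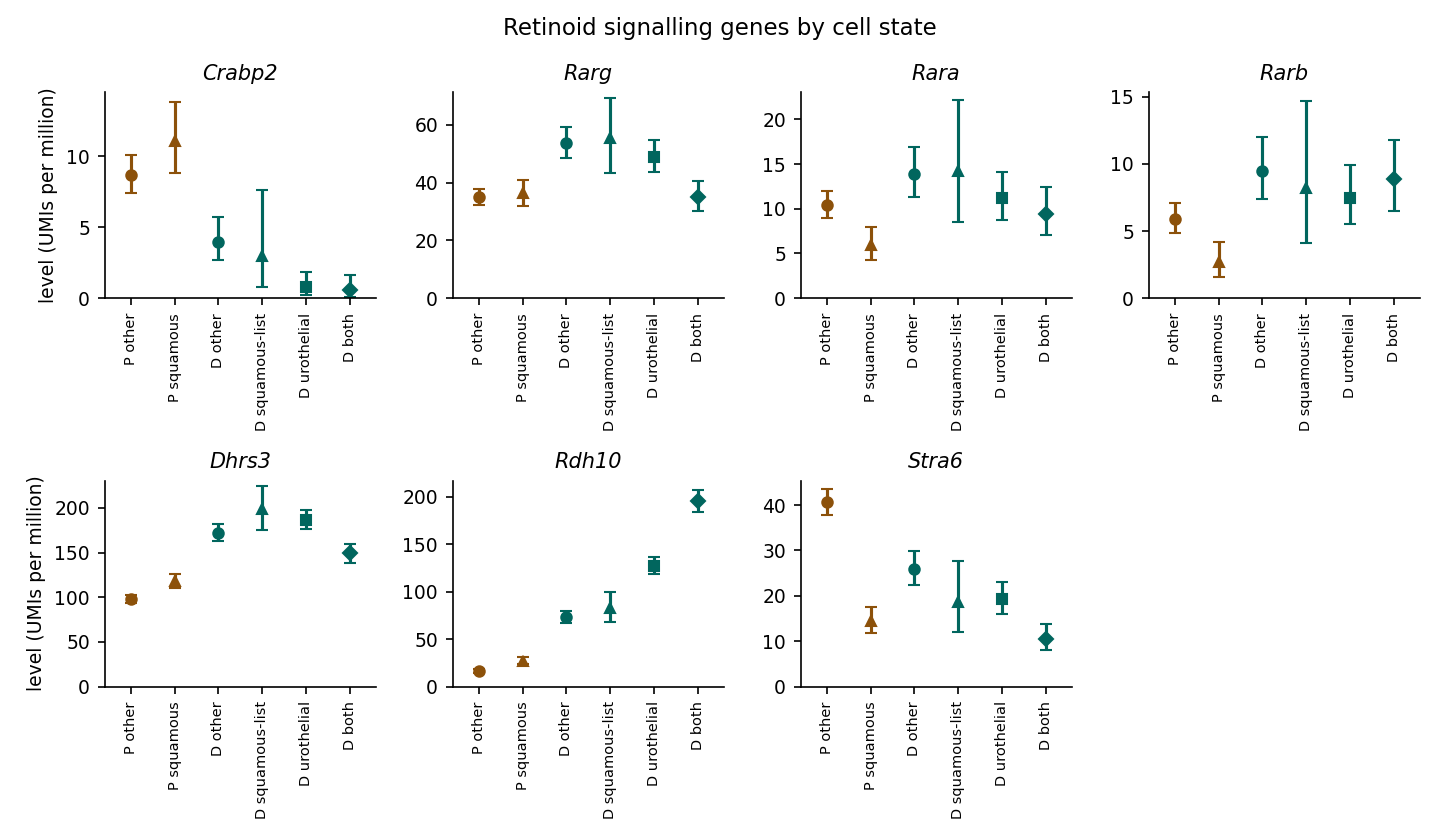
Level in CPM (linear axes from 0, 1 panel per gene) in other and squamous cells of P and in other, squamous-list, urothelial and both-class cells of D, with exact 95% Poisson intervals. Rdh10 runs from 16.2 in other cells of P to 195 in cells of both classes of D, while Stra6 runs from 40.6 to 10.6 over the same classes.

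Within D, urothelial cells carried more Rdh10 and fewer Crabp2 and Stra6 transcripts than other cells. Rdh10 had 532 UMIs in other cells (73.1 CPM, 67.1 to 79.6) and 815 in urothelial cells (127 CPM, 119 to 136), with a log2 ratio of 0.80 (0.64 to 0.96). Crabp2 had 29 UMIs in other cells (3.99 CPM) and 5 in urothelial cells (0.781 CPM), a log2 ratio of −2.35 (−4.08 to −0.97) that rests on too few UMIs to be called. Stra6 was at 25.8 CPM in other and 19.4 CPM in urothelial cells, with a log2 ratio of −0.42 (−0.76 to −0.08). Of 6 members with 50 UMIs, 0 were called higher and 0 lower, where 2.96% and 3.83% of 9948 genes were. The ratios of Rarg (−0.13), Rara (−0.31) and Rarb (−0.34) had intervals that included 0, and that of Dhrs3 was 0.12 (0.00 to 0.23). With the squamous state set by the 7 cornified genes instead, Rdh10 was at 1.08 and was called higher.

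The 925 cells of D that met both criteria had the highest uroplakin sum (3175 CPM, against 1222 CPM in urothelial cells). Rdh10 was at 195 CPM in them (1033 UMIs, 184 to 208), above urothelial cells by their intervals. Stra6 was at 10.6 CPM (8.00 to 13.8) and Rarg at 35.0 CPM (30.1 to 40.4), both below urothelial cells by their intervals. Dhrs3 was at 149 CPM (139 to 160), below the 187 CPM of urothelial cells. Crabp2 had 3 UMIs there (0.567 CPM).

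In squamous-list cells of D the levels were near those in other cells of D. Of 6 members with 50 UMIs 0 were called higher and 0 lower, where 0.548% and 1.55% of 9121 genes were. Rdh10 was at 82.9 CPM against 73.1 CPM, a log2 ratio of 0.18 (−0.13 to 0.48). Stra6 was at 18.7 against 25.8 CPM, a log2 ratio of −0.47 (−1.13 to 0.14). Only the interval of Dhrs3 lay above 0, at 0.21 (0.01 to 0.40).

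Squamous cells of P and urothelial cells of D were also set against each other, with the condition and the state confounded. From squamous cells of P to urothelial cells of D, 2 members were called higher (Rdh10 and Rarb) and 1 lower (Crabp2), where 22.2% and 3.89% of 9592 genes were. Rdh10 was at 27.2 CPM in the former and 127 CPM in the latter, with a log2 ratio of 2.23 (2.0 to 2.46). Rarb was at 2.67 and 7.49 CPM, a log2 ratio of 1.49 (0.69 to 2.34), and Crabp2 at 11.1 and 0.781 CPM, a log2 ratio of −3.83 (−5.49 to −2.55). Stra6, at 14.5 and 19.4 CPM, had a log2 ratio of 0.42 (0.03 to 0.81) that fell to 0.01 with the shift of 0.41 in the median gene removed. The Stra6 ratio took the other sign in 2 of 15 alternatives, and was −0.40 without the Sprr genes in the squamous list.

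Cells in neither state differed between the libraries as well. Of 7 members, 1 was called higher in D (Rdh10) and 1 lower (Crabp2), where 13% and 5.2% of 10860 genes were. With the shift of 0.47 in the median gene removed, 1 was higher and 2 were lower, as Stra6 went from −0.65 to −1.12, against 5.03% and 10.3% of genes. Rdh10 was at 16.2 CPM in other cells of P and 73.1 CPM in other cells of D, a log2 ratio of 2.18 (1.97 to 2.38), and 1.70 with the shift removed. The Crabp2 levels were 8.70 and 3.99 CPM, and the log2 ratio was −1.13 (−1.75 to −0.55). The difference in Rdh10 between libraries was thus also present outside the squamous and urothelial classes. Its ratio between other cells of the conditions exceeded the ratios of squamous or urothelial over other cells within 1 library. It did not exceed the span within D by clusters, described below. There the log2 ratio of Rdh10 in cluster 3 over cluster 2 was 2.36. The other cells of both libraries were not alike in their markers. Uroplakins summed to 74.4 CPM in other cells of D and 5.11 CPM in those of P. Intermediate markers were at 5716 and 3567 CPM and proliferation markers at 105 and 340 CPM in the same order. The part of these marker differences in the ratios of other cells was not tested.

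Gradation was followed in 4 bins of equal cell number along each library's squamous share. In P, Stra6 was at 40.0, 42.6 and 40.1 CPM in bins 1 to 3, and at 15.6 CPM (13.02 to 18.5) in bin 4, the only one below the others by its interval. Rdh10 in P was at 16.9, 16.7 and 15.6 CPM in bins 1 to 3 and at 27.2 CPM in bin 4. The basal keratin gene Krt14 ran from 2778 to 534 CPM and Flg from 0 to 630 CPM from bin 1 to bin 4. In D, Rdh10 was at 76.4, 91.9, 124 and 177 CPM from bin 1 to bin 4, and its intervals overlapped only between bins 1 and 2. Stra6 in D was at 23.6, 24.6, 20.1 and 11.5 CPM. Bin 4 of D (1224 cells) lay within the squamous-list class (443 cells) and the class of both criteria (925 cells). It had 0 UMIs of Flg, and most of its cells met the uroplakin criterion. Rdh10 was at 82.9 CPM in squamous-list cells and at 195 CPM in cells of both criteria. The part of uroplakin-carrying cells in the gradation of D was not tested.

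By uroplakin UMIs per cell in D, Rdh10 was at 67.0 CPM at 0 UMIs (2047 cells), 94.3 at 1 (668 cells), 121 at 2 to 4 (929 cells) and 176 at 5 or more (1252 cells). Intervals of neighbouring bins did not overlap. Crabp2 was at 4.20 CPM (26 UMIs) in cells without uroplakin UMIs and at 0.763 CPM (6 UMIs) in those with 5 or more. Stra6 was at 26.5 and 13.2 CPM and Rarg at 57.3 and 36.1 CPM in the same outer bins.

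**Figure D3:**
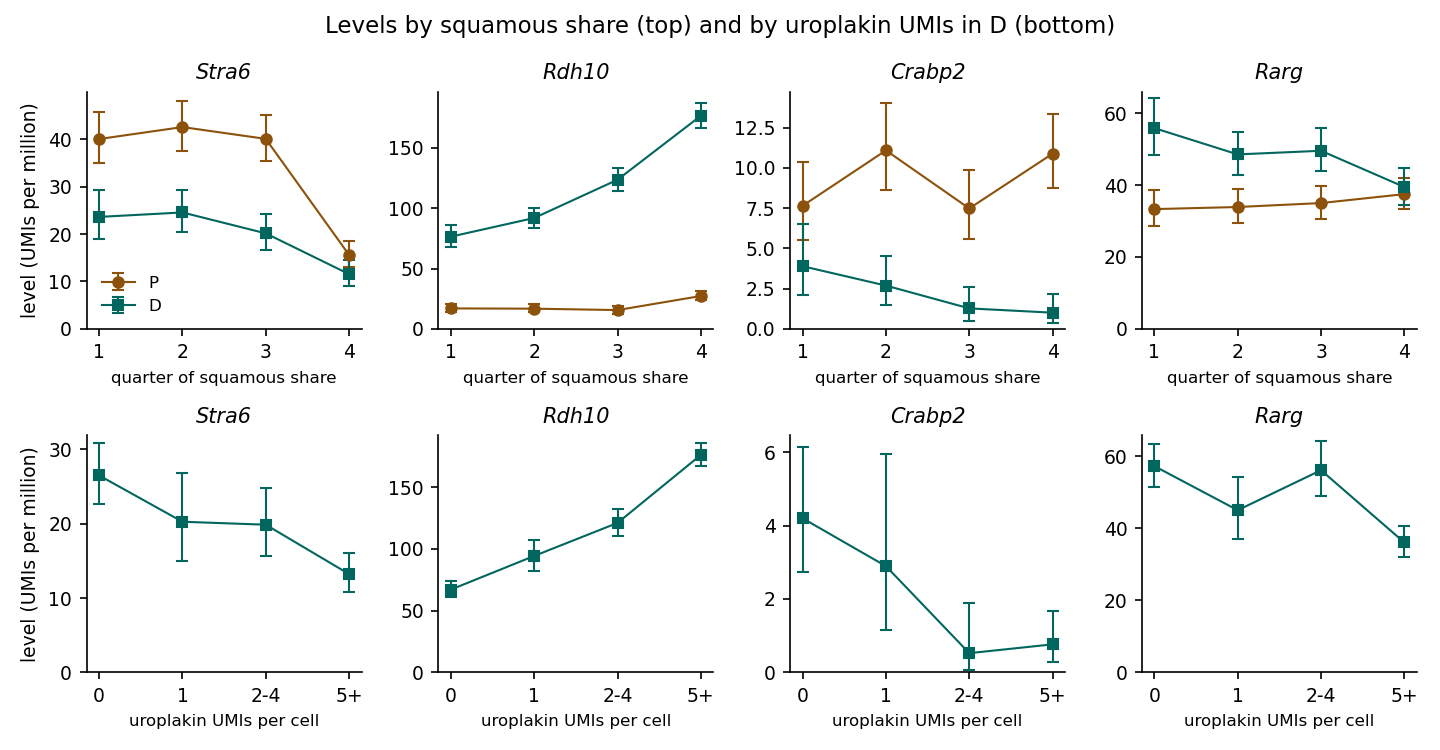
Top, level in CPM by bin of the squamous share (4 bins of equal cell number) within P (circles) and D (squares). Bottom, level in D by uroplakin UMIs per cell (0, 1, 2 to 4, 5 or more). Bars are exact 95% Poisson intervals. Stra6 in P drops from 40.1 to 15.6 at the last bin, and Rdh10 in D climbs from 67.0 to 176 over the uroplakin bins.

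Each library was also clustered on variable genes other than the retinoid genes, which gave 4 clusters in P and 4 in D. They are called by number and leading genes. In P, Stra6 was highest in cluster 3 (61.8 CPM, 50.1 to 75.4), led by mitotic genes such as Ccna2 and Hmmr, and in cluster 0 (49.1 CPM), led by Ctla2a and Igfbp5. It was lowest in cluster 1 (17.1 CPM, 14.8 to 19.6), led by Sprr3, Sprr2f and Cnfn, in which 58.3% of cells were in the squamous state. Rdh10 had its highest P level in that cluster 1 (25.8 CPM) and its lowest in cluster 3 (10.2 CPM). Rarb ran from 2.37 CPM in cluster 1 to 8.92 CPM in cluster 3, on 28 and 14 UMIs. Crabp2 was at 12.9 CPM in cluster 0, 10.1 in cluster 1, 5.10 in cluster 3 and 4.04 in cluster 2, which Fmo2, Mmp7 and Krt1 led.

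In D, Rdh10 was at 291 CPM (273 to 311, 911 UMIs) in cluster 3, led by BC037156, Sprr2f and Ubd and with Upk3a among its 10 leading genes. This cluster had 659 cells, with a uroplakin sum of 4150 CPM, and 71.6% of them met both state criteria. Rdh10 followed with 113 CPM in cluster 0, led by Reg1 and Ccr2. Clusters 1 and 2, at 57.0 and 56.9 CPM, did not differ by their intervals. Cluster 1 was led by Myl9, Wisp1 and Acta2, and cluster 2 by Krt1 and Slc16a14.

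Stra6, Rarg and Dhrs3 had their lowest D level in the same cluster 3, below every other cluster of D by their intervals. Rara and Crabp2 were also lowest there. The interval of Rara in cluster 3 overlapped those in every other cluster of D, and that of Crabp2 those in clusters 0 and 2. Rarb was at 10.9 CPM (7.53 to 15.2) in cluster 3, 10.8 CPM in cluster 1 and 7.11 CPM (5.61 to 8.89) in cluster 0. Its clusters in D did not differ by their intervals. Stra6 was at 10.2 CPM in cluster 3 and at 29.5 CPM in cluster 2, and Rarg at 28.5 and 72.7 CPM. Dhrs3 was at 112 CPM in cluster 3 and 197 CPM in cluster 0. Crabp2 was highest in cluster 1 at 5.63 CPM (23 UMIs), and at 0.640 CPM (2 UMIs) in cluster 3. The fibroblast list, nearly all Dcn, was at 230 CPM in cluster 1 and at 5.44 to 63.0 CPM in the other clusters of D, and its part in the Crabp2 level was not tested. Of 13 pairs of member and library with at least 50 UMIs, 7 (of 5 members) spanned at least 2-fold between clusters, where 33.8% of all 21168 such pairs did, the genes that defined the clusters among them.

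**Figure D4:**
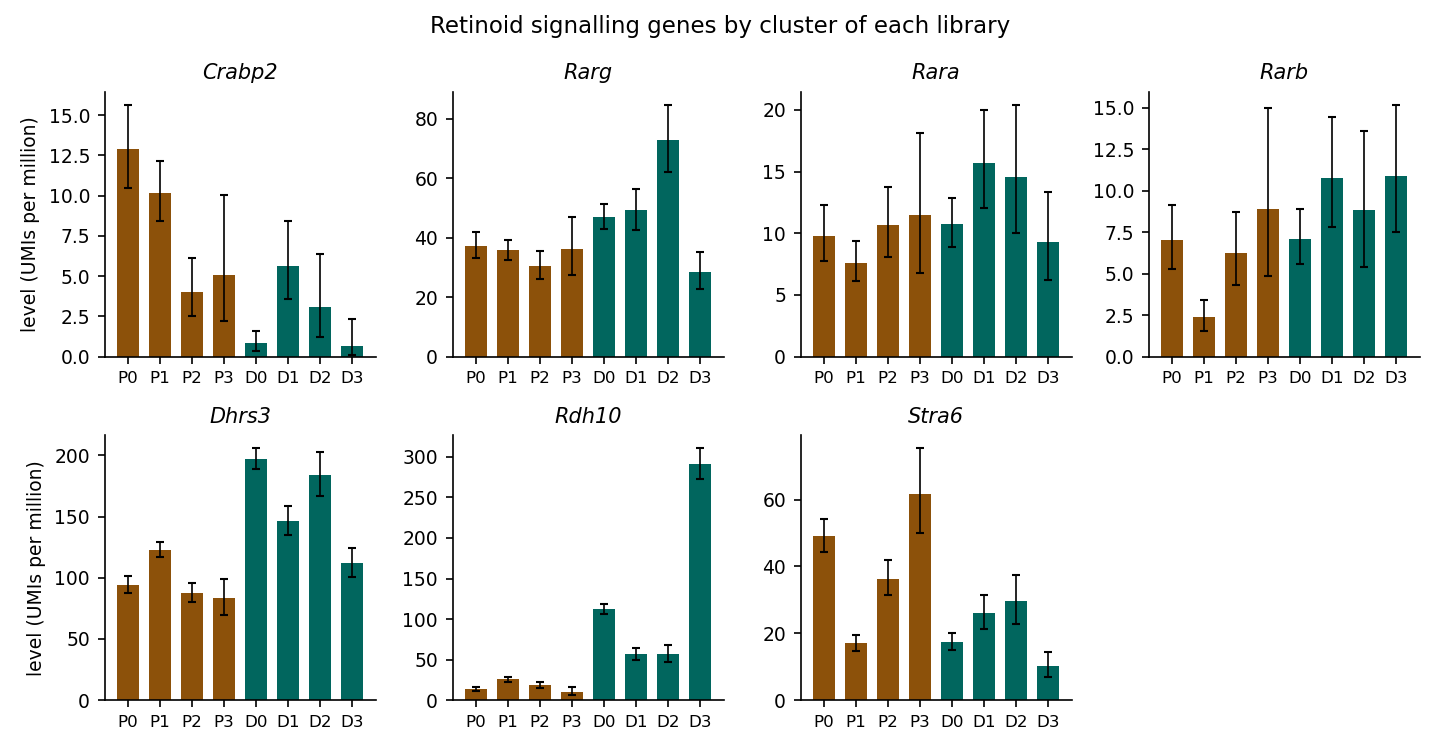
Level of 7 retinoid genes in CPM (linear axes from 0) in clusters 0 to 3 of P and 0 to 3 of D, with exact 95% Poisson intervals. Rdh10 peaks at 291 in cluster 3 of D, and Stra6 runs from 61.8 in cluster 3 of P to 10.2 in cluster 3 of D.

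Genes with the most similar pattern were sought over the 8 clusters, among 9550 genes, by Pearson's r of log2(CPM + 1). The clusters share 2 libraries, so the values are descriptions only. The highest r for Stra6 was with Pitx1 (0.997), Shmt1 (0.984) and Igsf8 (0.979), and for Rdh10 with Klhl18 (0.987), Wwc1 (0.980) and Tmbim4 (0.978). For Crabp2 it was Ddit3 (0.959), Fam162a (0.950) and Megf6 (0.949). For Dhrs3 it was Mrps34 (0.972), Braf (0.971) and Fam214a (0.968). Rarg was closest to Pcf11 (0.982), Fam53b (0.960) and Sox21 (0.945), Rara to Bach1 (0.982), Rbm28 (0.975) and Zfp512 (0.971), and Rarb to Gcdh (0.978), Bckdk (0.976) and Adsl (0.967).

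Detection per cell was low for most members. After each cell had been thinned to 2100 UMIs, which left out 180 shallower cells of P and 479 of D, 64.8% of P cells and 47.1% of D cells had no UMI of any member. Rdh10 was detected in 252 of 6638 P cells (3.796%, exact binomial interval 3.35 to 4.28%) and in 862 of 4417 D cells (19.5%, 18.4 to 20.7%). Before thinning these shares were 7.10% and 30.5%. Stra6 was detected in 6.403% of P cells and 4.17% of D cells, and Crabp2 in 1.64% and 0.543%. Dhrs3 had the highest shares, at 19.4% of thinned P cells and 29.2% of thinned D cells. In positive D cells Rdh10 averaged 1.21 UMIs, and 1.04 in P. No cell type that should lack these genes was at hand to measure free RNA in the droplets, so its share was not estimated.

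The other enzymes, carriers and partners of the pathway were described with a list of 51 genes, of which 29 had at least 50 UMIs. Of these, 7 were called higher in D and 5 lower, where 14.3% and 5.66% of all genes were, and 4 and 5 with the shift removed, against 6.43% and 9.83%. Their median log2 ratio was 0.48, beside 0.40 for all genes.

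Among carriers and storage genes, Fabp5 and Rbp2 were lower in D. Fabp5, a lipid chaperone that also binds retinoic acid, had 15699 UMIs in P (588 CPM) and 1170 in D (57.6 CPM), a log2 ratio of −3.35 (−3.44 to −3.27). Rbp2, an intestinal retinol binding protein, had 324 UMIs in P and 3 in D. Lrat, which esterifies retinol for storage, had 0 UMIs in both libraries.

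Among 13 oxidising and reducing enzymes, 6 were higher in D (Adh1, Adh7, Rdh13, Dhrs4, Akr1b8 and Bco2) and 1 lower (Rdh12), against 14.3% and 5.66% of all genes. With the shift removed only Adh1, Adh7 and Dhrs4 of these were still called higher, against 6.43% of all genes. The alcohol dehydrogenases Adh1 and Adh7, which oxidise retinol besides ethanol, had 13 and 35 UMIs in P (0.487 and 1.31 CPM) and 1205 and 1410 in D (59.3 and 69.4 CPM). Their log2 ratios were 6.93 (6.15 to 7.84) and 5.73 (5.24 to 6.25). Dhrs4 was at 23.4 CPM in P and 65.0 CPM in D, and Rdh12 at 7.61 and 2.07 CPM.

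The retinaldehyde dehydrogenase genes Aldh1a1 and Aldh1a3 went opposite ways. Aldh1a1 was at 18.9 CPM in P (504 UMIs) and 94.8 CPM in D (1924 UMIs), a log2 ratio of 2.33 (2.18 to 2.47). Aldh1a3 was at 27.0 CPM in P (721 UMIs) and 6.11 CPM in D (124 UMIs), a log2 ratio of −2.15 (−2.43 to −1.87). Aldh1a7 was at 36.1 and 46.5 CPM. Aldh1a2 had 1 UMI in P and 0 in D. Cyp26c1 had 0 UMIs in both libraries, like Cyp26a1, and Cyp26b1 had 15 in P and 3 in D. Of the 8 receptor partners and cofactors with 50 UMIs, 0 were called in either direction. Rxra was at 24.96 and 43.8 CPM and Rxrb at 22.1 and 22.2 CPM.

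A few of these genes differed between the states. In squamous cells of P, 4 of 25 pathway genes were called higher and 1 lower, where 4.67% and 11.3% of all genes were. Aldh1a3 was at 10.4 CPM in other and 68.4 CPM in squamous cells, a log2 ratio of 2.72 (2.48 to 2.97). Fabp5 was at 369 and 1187 CPM, Rbp2 at 7.38 and 25.3 CPM and Akr1b8 at 55.4 and 186 CPM. Tgm2, a transglutaminase gene induced by retinoic acid in many cells, was lower at 7.01 and 1.41 CPM, on 133 and 10 UMIs. In urothelial cells of D, 3 of 24 were called higher and 1 lower, where 2.96% and 3.83% of all genes were. Aldh1a1 was at 50.2 CPM in other and 130 CPM in urothelial cells, Adh1 at 27.2 and 76.2 CPM and Akr1b8 at 62.1 and 225 CPM, while Tgm2 was at 11.1 and 4.995 CPM.

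**Figure D5:**
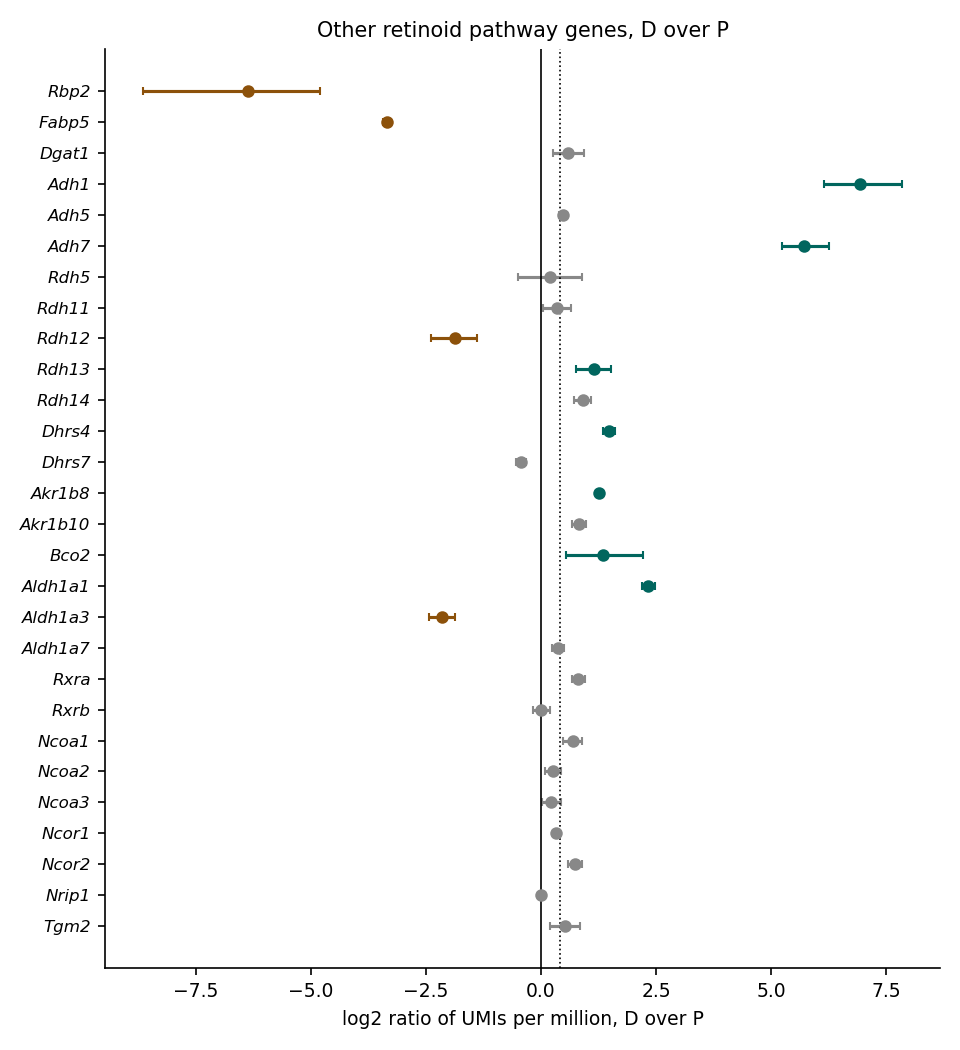
Log2 ratio of CPM, D over P, for pathway genes with at least 50 UMIs, in order of role from carriers to a retinoic acid-induced gene, with exact 95% intervals. Green marks genes at least 2-fold higher and brown those at least 2-fold lower in D, grey the rest. The dotted line is the median gene at 0.42. Adh1 (6.93) and Rbp2 (−6.36) lie at the ends.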

How the data were processed

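The authors prepared 3′ single-cell libraries (10x, v3 chemistry) and made the count matrices with Cell Ranger 3.0.2 and bcl2fastq 2.19.0 on GRCm38/mm10. The deposited values are raw UMI counts per gene and barcode, with no normalization. Cells with over 800 genes and at most 12% mitochondrial UMIs were kept. Counts were summed over cells and expressed as CPM. Exact 95% Poisson, conditional binomial and binomial (Clopper-Pearson) intervals cover counting error only. As each condition is 1 library, no test was made. Genes with at least 50 UMIs over both groups were called at a 2-fold limit. Clustering used Seurat 5.3.0 under R 4.3.3 (2000 variable features less the retinoid genes, 25 and 21 components, resolution 0.2). No doublets were removed: Scrublet (scanpy 1.11.5) called 0 cells in both libraries by its own threshold, so the 371 P and 274 D cells with the highest scores were removed as an alternative only. Of the gene identifiers, 30934 were placed with GENCODE M21. The procedure was tested on simulated counts. All members, the pathway genes and the genes of most similar pattern (highest r, at least 200 UMIs) were named by rule, pathway genes where called, except for a listed gene that is not reported here; further names are markers, leading genes, or pathway genes given for their role and chosen after their values were seen. Members and lists were chosen with earlier results of these data known. Per-cell depth limits every share of cells, and members under 50 UMIs are given by their UMIs.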

Additional observations from a re-analysis of the deposited data

Results flagged for a closer look

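Barcodes that failed the filter were left out of the comparisons in the report. In the 2079 such barcodes of D, Dhrs3 and Rdh10 were above left-out barcodes of P by their intervals. Per 1000000 non-mitochondrial UMIs, Dhrs3 was at 214 (195 to 235) in left-out barcodes of D, beside 186 in kept cells of D and 111 in kept cells of P. Rdh10 was at 137 (122 to 154) in left-out barcodes of D, beside 132 in kept cells of D and 20.95 in kept cells of P. In left-out barcodes of P the levels were 138 and 21.6. Stra6 was at 34.6 (27.0 to 43.8) in left-out barcodes of P and 29.9 (22.9 to 38.4) in those of D. Crabp2 was at 5.02 (2.41 to 9.23) and 3.38 (1.36 to 6.96), on 10 and 7 UMIs. For both genes the intervals of P and D overlapped in left-out barcodes, but not in kept cells. The intervals of Rarg, Rara and Rarb in left-out barcodes of D (61.8, 17.4 and 15.9) overlapped those in left-out barcodes of P but lay above those in kept cells of P (37.4, 9.68 and 5.22).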

How the results depend on the processing

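No paired analysis was possible because each condition is 1 library, and for the same reason no replicate could be left out. No ratio of a member called at 2-fold changed sign under any alternative. Of 114 counts recomputed, 94 stayed within 1.5 times the main count. A 1.5-fold limit raised the number of called members to 5 between D and P, 4 between squamous and other cells of P, 1 between urothelial and other cells of D, 5 between urothelial cells of D and squamous cells of P, and 6 between other cells of the libraries. At that limit 46%, 33%, 16%, 53.3% and 45.6% of all genes were called in the same comparisons. The count in squamous cells of P fell from 2 to 1 under the looser cell filter, with all barcodes, with a larger share of cells called squamous, after thinning and with the 7 cornified genes, a definition added after seeing the data, and to 0 without the Sprr genes. In squamous-list cells of D it rose from 0 to 3 with a smaller share of cells in the class, which is 53 cells of D, and with the cornified genes only 4 cells of D were left, so that no value was computed. In urothelial cells of D it rose from 0 to 1 with a minimum of 20 UMIs, after thinning and with the cornified genes. Between urothelial cells of D and squamous cells of P it fell from 3 to 1 with a minimum of 100 UMIs and after thinning. Between other cells it fell from 2 to 1 under the looser filter, with at least 1 uroplakin UMI and after thinning. A minimum of UMIs and thinning leave fewer counts by construction; for the rest the cause was not tested. Pairs of member and library spanning 2-fold between clusters numbered 6 to 8 under other clusterings (7 in the main one), and shares of cells differed between libraries beyond their intervals for 5 to 7 of 8 members (6 in the main one).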
